A study of Mus musculus with 12 samples.

Results

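The 10 genes followed here carry the names of bone morphogenetic proteins (BMPs) and growth and differentiation factors (GDFs). They are Bmp1, Bmp2, Bmp3, Bmp4, Bmp5, Bmp6, Bmp7, Gdf5, Gdf6 and Gdf10, found by mouse symbol among the 49585 genes of the count files. All 10 passed the filter on low counts, which left 18648 genes for testing. RNA was sequenced from 4 stromal populations sorted from the bones of wild-type male C57BL/6 mice aged 8 to 10 weeks and kept at steady state, with 3 libraries of 2000 cells for each population. Itga8+ MSCs were Itga8+Alcam+Sca-1- cells, Itga8- BLCs were Itga8-Alcam+Sca-1- cells that the labels call osteoblasts, Sca-1+ MSCs were Alcam-Sca-1+ cells, and CD51+CD140a+ MSCs were sorted on both of those receptors. All gates excluded CD45, Ter119 and CD31, the markers of blood, erythroid and endothelial cells. The first 3 populations came from collagenase-digested bone fragments left after the marrow had been flushed out. The CD51+CD140a+ MSCs came from the flushed marrow itself, digested with Accumax, so that population, site and digestion cannot be told apart for them. Neither the labels nor the methods tie a library to an animal, so p-values measure the spread between these libraries, which may be technical.

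BMPs and GDFs are secreted dimers of the transforming growth factor beta (TGF-beta) superfamily. They are made as precursors, cut by proprotein convertases, and bind pairs of type I and type II serine/threonine kinase receptors. For many of these ligands, though not all, the receptors phosphorylate SMAD1, SMAD5 and SMAD9. The activated SMADs enter the nucleus with SMAD4 and switch on genes such as the Id family. Outside the cell the ligands are held back by antagonists such as noggin, chordin and gremlin. BMPs were first recognised by their power to induce ectopic bone, and in the skeleton they act on osteoblast, chondrocyte and joint formation. Bmp1 bears the family name but is a metalloproteinase of the astacin family, the procollagen C-proteinase, which trims fibrillar procollagens and also cuts chordin. It is therefore given apart from the 9 ligands wherever transcripts are summed.

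The libraries held 17580677 to 31332475 counts. A floor of 3 counts corresponded to 0.0820 to 0.180 CPM (counts scaled by TMM-adjusted library size). Pearson correlations of log2(CPM + 1) between replicates were 0.983 to 0.988 for Sca-1+ and 0.980 to 0.988 for CD51+CD140a+ MSCs, but 0.919 to 0.961 in Itga8- BLCs and 0.855 to 0.962 in Itga8+ MSCs. Replicate 2 of the Itga8+ MSCs stood apart from its group. It held the highest summed blood cell markers (11862 CPM for 8 genes, against 871 to 6503 CPM in the other 11 libraries) and the highest erythroid markers (1555 CPM against 118 to 415 CPM). Itga8 mRNA averaged 103 ± 85.7 CPM (SD, n = 3) in Itga8+ MSCs, 1.74 ± 2.11 in Itga8- BLCs, 2.28 ± 0.529 in Sca-1+ MSCs, while CD51+CD140a+ MSCs held 64.4 ± 16.2. The 8 osteoblast markers summed to 36767 to 115070 CPM in Itga8- BLCs, the population labelled as osteoblasts, and to at most 7956 CPM in Itga8+ MSCs. The same 2 Alcam+ populations also held 14864 to 129323 CPM of 8 cartilage markers. In sorted bulk RNA, fewer cells of a type and less RNA per cell cannot be told apart.

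Each population expressed its own mixture of ligands. An F-test of any difference among the 4 populations passed a false discovery rate (FDR, Benjamini-Hochberg over all genes tested) of 0.1 for 9 of the 10 genes, against 47.5% of all 18648 genes. Gdf10 was the exception, with an FDR of 0.493, and the others ranged from 3.62e-06 for Bmp3 to 0.0512 for Gdf5. To compare ligands with each other, TPM values, which scale counts by gene length as well as library size, were summed over the 9 ligands. The sum was 363 ± 179 TPM in Itga8+ MSCs, 476 ± 158 in Itga8- BLCs, 365 ± 46.5 in Sca-1+ MSCs, while CD51+CD140a+ MSCs held 1684 ± 323. The 3 CD51+CD140a+ MSC libraries, at 1358 TPM or more, all lay above the other 9 libraries, which reached 645 TPM at most.

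By share of summed TPM, Bmp7 led in both Alcam+ populations, Bmp4 in Sca-1+ MSCs, and Bmp6 with Bmp4 in CD51+CD140a+ MSCs. Bmp7 took 46.8 ± 9.91% in Itga8+ MSCs (SD, n = 3), followed by Bmp5 at 17.1 ± 5.09% and Gdf10 at 13.3 ± 2.58%. In Itga8- BLCs, Bmp7 took 30.8 ± 5.06%, Bmp2 23.6 ± 3.83% and Bmp3 19.2 ± 2.96%, and in replicate 3 Bmp2 (27.1%) lay above Bmp7 (24.9%). Bmp4 led in Sca-1+ MSCs at 38.8 ± 2.24%, before Gdf10 at 18.6 ± 2.60% and Bmp2 at 17.5 ± 0.776%. Bmp6 and Bmp4 shared the lead in CD51+CD140a+ MSCs, at 42.4 ± 1.74% and 42.2 ± 1.64%, which did not differ beyond their spread. Within the Itga8+ MSCs, replicate 2 was less dominated by Bmp7 than the others, and the Bmp4 share there was 19.0% against a lowest value of 2.28%.

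**Figure D1:**
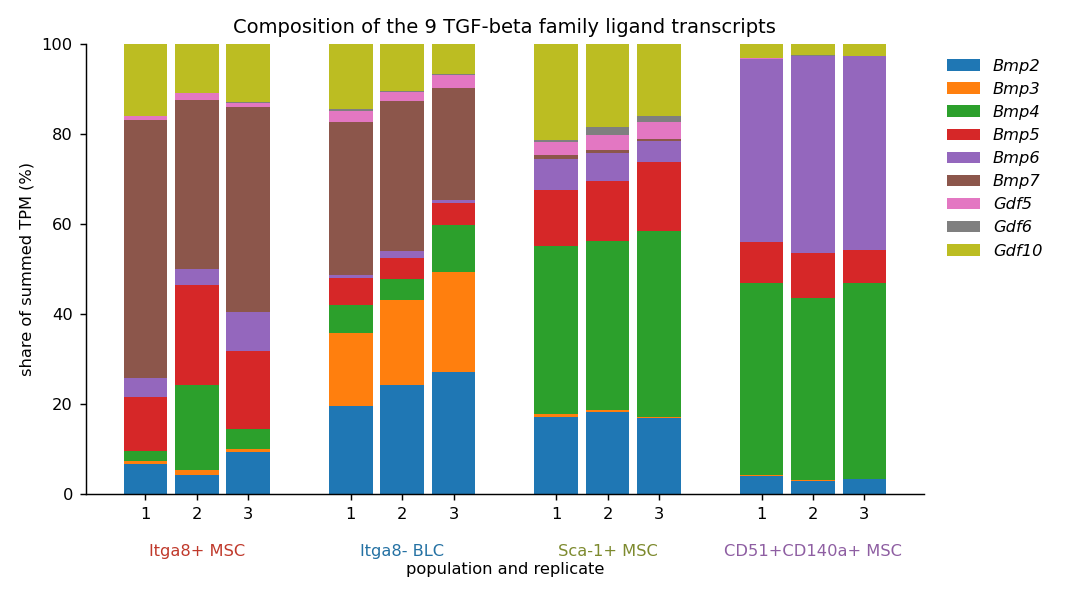
Share of each of the 9 TGF-beta family ligands in their summed TPM (y axis, percent), 1 bar per library, 3 replicates per population. Bmp7 is the largest part of each Itga8+ MSC bar, Bmp2 and Bmp3 widen in Itga8- BLCs, and Bmp4 with Bmp6 fill most of the CD51+CD140a+ MSC bars.

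Calls between pairs of populations required a difference of more than 2-fold at an FDR under 0.1, from edgeR's quasi-likelihood test on all 12 libraries. The 6 comparisons share libraries and are not independent of each other. Of the 10 genes, 1 was higher and 3 were lower in Itga8+ MSCs than in Itga8- BLCs, where 1.66% and 2.16% of all genes tested were called in those directions. Against Sca-1+ MSCs, 1 gene was higher and 4 were lower in Itga8+ MSCs, beside 12.9% and 8.89% of all genes. Against CD51+CD140a+ MSCs, 2 were higher and 3 lower in Itga8+ MSCs, beside 21.2% and 14.3% of all genes. The Itga8- BLCs had 3 genes higher and 2 lower than the Sca-1+ MSCs (14.5% and 11.9% of all genes). They had 5 higher and 3 lower than the CD51+CD140a+ MSCs (20.4% and 14.9% of all genes), the comparison with the most calls. Sca-1+ MSCs had 3 higher and 3 lower than CD51+CD140a+ MSCs (11.2% and 9.3% of all genes). The shares of members called lay above these backgrounds in 10 of the 12 directions. The exceptions were the 1 and 2 genes that Itga8+ MSCs expressed above Sca-1+ and CD51+CD140a+ MSCs, close to the share of all genes.

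The median log2 fold change of the 10 genes was -1.28 for Itga8+ MSCs against Itga8- BLCs, where the median of all genes was 0.08. It was -0.78 against Sca-1+ MSCs (all genes 0.16) and -0.61 against CD51+CD140a+ MSCs (all genes 0.18). For Itga8- BLCs it was 0.02 against Sca-1+ MSCs (all genes 0.12) and 1.46 against CD51+CD140a+ MSCs (all genes 0.09), and for Sca-1+ against CD51+CD140a+ MSCs it was 0.44 (all genes -0.003). Without replicate 2 of the Itga8+ MSCs, the calls in this population's 3 comparisons numbered 5, 3 and 3 in place of 4, 5 and 5. The other 3 comparisons kept their counts of 5, 8 and 6 without it.

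**Figure D2:**
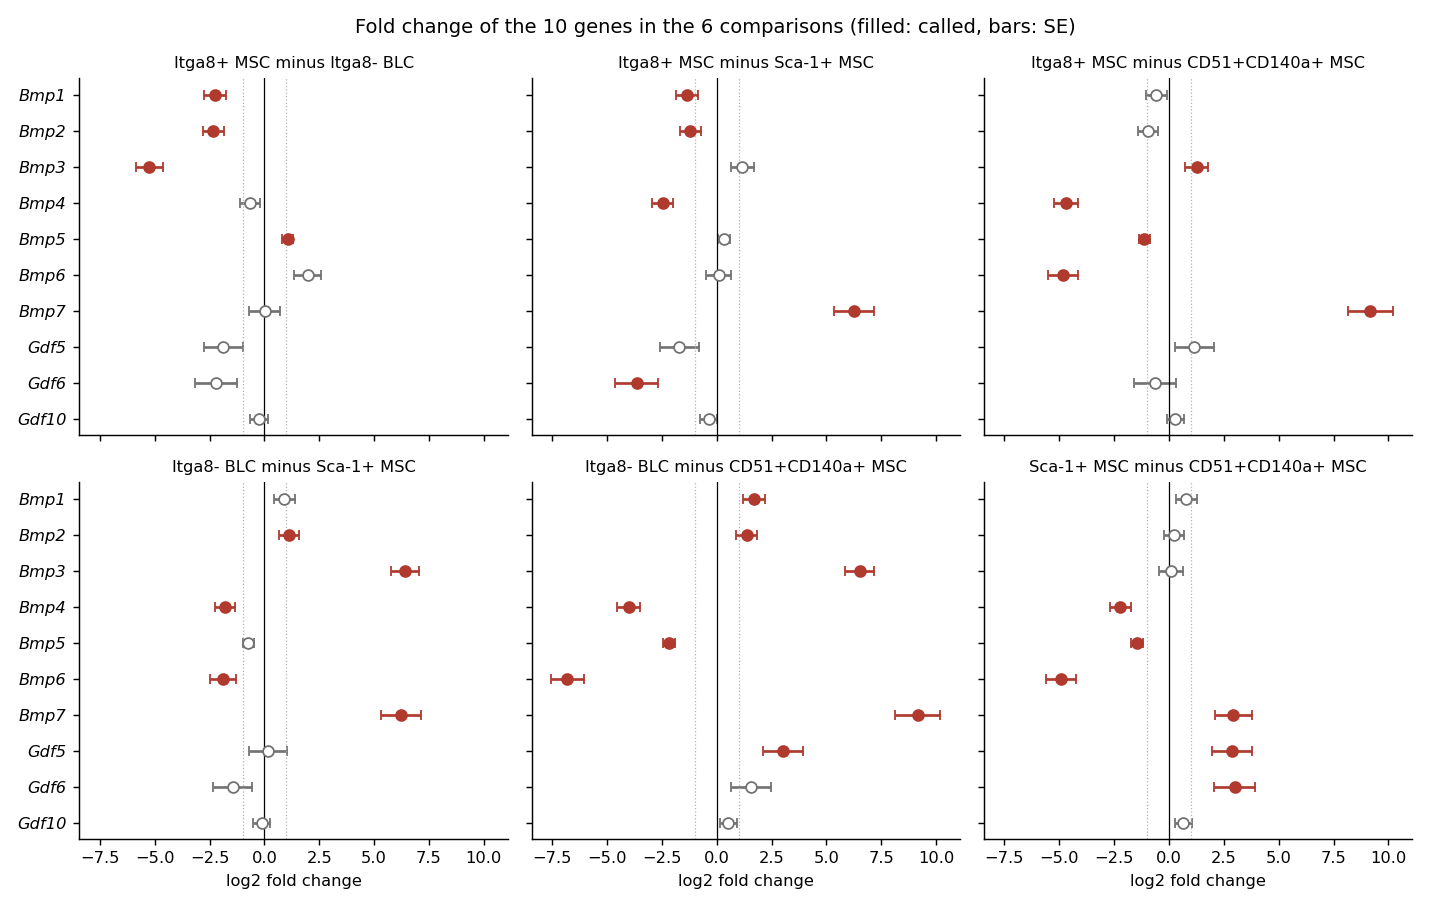
Log2 fold change (x axis, first population minus second) of each gene in the 6 comparisons, with standard errors as bars, filled red where called and open grey where not, and dotted lines at a fold change of 2. Bmp7 lies far to the right wherever an Alcam+ population is compared with Sca-1+ or CD51+CD140a+ MSCs, Bmp4 and Bmp6 lie to the left of the CD51+CD140a+ MSCs, and Gdf10 sits near 0 throughout.

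Bmp7 was a transcript of the 2 Alcam+ endosteal populations. Bmp7 (ENSMUSG00000008999, GRCm38 chr2:172868012-172940321, minus strand) encodes a ligand that acts in kidney, eye and skeletal development and induces bone and cartilage. Its level was 264, 96.0 and 239 CPM in the 3 Itga8+ MSC libraries and 184, 264 and 146 CPM in the 3 Itga8- BLC libraries. In Sca-1+ MSCs it was 2.82, 3.10 and 1.97 CPM, and in CD51+CD140a+ MSCs 0.847, 0 and 0.161 CPM, where the library at 0 allows up to 0.0860 CPM. The Alcam+ libraries overlapped each other and lay above all 6 others, and the Sca-1+ libraries lay above the CD51+CD140a+ libraries. Bmp7 was 75.9-fold higher in Itga8+ than in Sca-1+ MSCs (log2 fold change 6.25, SE 0.901, FDR 0.000886) and 577-fold higher than in CD51+CD140a+ MSCs (log2 9.17, SE 1.03, FDR 6.00e-05). For Itga8- BLCs the corresponding folds were 75.2 (FDR 0.000659) and 571 (FDR 5.99e-05). Without CD51+CD140a+ replicate 1, which held 31 Bmp7 counts, the log2 values against that population were 11.23 for Itga8+ MSCs and 11.22 for Itga8- BLCs. The 2 Alcam+ populations showed no detected difference from each other, with a log2 fold change of 0.01 and an SE of 0.711. Sca-1+ MSCs exceeded CD51+CD140a+ MSCs 7.60-fold (FDR 0.0304), a call that was lost without CD51+CD140a+ replicate 3, at a log2 value of 2.61, and had a log2 value of 4.99 without replicate 1.

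Cartilage, blood cell, Schwann cell and skeletal muscle markers moved with Bmp7, in that each sum was higher in all 6 Alcam+ libraries than in the other 6. All 8 cartilage markers (Acan, Col2a1, Sox9, Col9a1, Matn3, Hapln1, Chad and Col11a2) were detected in each population. Their summed level was 21217 to 129323 CPM in Itga8+ MSCs, 14864 to 84371 in Itga8- BLCs, 7203 to 9536 in Sca-1+ MSCs, while CD51+CD140a+ MSCs held 558 to 1473. Chad made up most of the Sca-1+ sum and did not follow Bmp7, at 6591 CPM (5556 to 7848) in Sca-1+ MSCs and 3383 CPM (2535 to 4448) in Itga8- BLCs. The 8 blood cell markers summed to 2304 to 11862 CPM in the Alcam+ libraries and 871 to 1735 CPM in the other 6, with none at 0 counts in a population. The 5 Schwann cell markers summed to 57.9 to 186 CPM and 12.3 to 24.6 CPM, with 2 genes at 0 counts in Sca-1+ MSCs and 1 each in the Itga8+ and CD51+CD140a+ populations. The 6 skeletal muscle markers summed to 5.22 to 39.9 CPM and 1.69 to 3.74 CPM, with 2 genes at 0 counts in Sca-1+ MSCs and 1 each in those same populations. Within the Itga8+ MSCs the library lowest in Bmp7, replicate 2, was also the lowest in cartilage markers, and in Itga8- BLCs replicate 3 was the lowest in both. Blood cell, Schwann cell and skeletal muscle markers ran the other way within the Itga8+ MSCs, where replicate 2 was the highest in all 3 lists. Replicate 3 of the Itga8- BLCs was the highest of its group in Schwann cell markers and the lowest in blood cell and skeletal muscle markers. The part of these markers in the Bmp7 difference was not tested.

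Bmp3, Bmp2 and Bmp1 were highest in Itga8- BLCs. Bmp3 (ENSMUSG00000029335, chr5:98854415-98884396, plus strand), known as osteogenin, restrains the osteogenic action of other BMPs and is an abundant BMP of bone matrix. It stood at 163, 274 and 241 CPM in Itga8- BLCs, and at 5.74, 5.35 and 6.76 CPM in Itga8+ MSCs. Sca-1+ MSCs gave 2.99, 2.70 and 2.25 CPM, and CD51+CD140a+ MSCs 3.20, 3.73 and 0.483 CPM. The Itga8- BLC libraries were separated from all 9 others, and the Itga8+ MSC libraries lay above the last 2 populations by a narrow margin. Bmp3 was 37.97-fold lower in Itga8+ MSCs than in Itga8- BLCs (log2 -5.25, SE 0.613, FDR 0.000925). Itga8- BLCs exceeded Sca-1+ MSCs 85.4-fold (log2 6.42, SE 0.650, FDR 6.99e-05) and CD51+CD140a+ MSCs 91.1-fold (log2 6.51, SE 0.650, FDR 2.47e-05). Bmp3 was also called 2.40-fold higher in Itga8+ than in CD51+CD140a+ MSCs (FDR 0.0914), but 14 of the 21 alternative analyses lost that call. The 2.25-fold difference between Itga8+ and Sca-1+ MSCs had an FDR of 0.153, and Sca-1+ against CD51+CD140a+ MSCs gave a log2 value of 0.09 (FDR 0.958).

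Bmp2 (ENSMUSG00000027358, chr2:133552159-133562885, plus strand), a strongly osteoinductive ligand, was also highest in Itga8- BLCs, at smaller distances, and lowest in Itga8+ MSCs. It reached 93.6, 169 and 141 CPM in Itga8- BLCs, 55.2, 73.4 and 55.1 CPM in Sca-1+ MSCs, 56.3, 37.4 and 63.8 CPM in CD51+CD140a+ MSCs and 27.1, 9.56 and 43.4 CPM in Itga8+ MSCs. Only the Itga8- BLC libraries were separated from the other 9, and the Itga8+ MSC and CD51+CD140a+ MSC libraries overlapped. Itga8+ MSCs were 5.04-fold below Itga8- BLCs (log2 -2.33, SE 0.476, FDR 0.0217). That call was lost in a fit of those 6 libraries alone. Itga8- BLCs were 2.56-fold above CD51+CD140a+ MSCs (FDR 0.0430), a call lost with library totals alone, without Itga8- replicate 2 and without CD51+CD140a+ replicate 2. They were 2.20-fold above Sca-1+ MSCs (FDR 0.0986). The latter call and the 2.29-fold lower level in Itga8+ than in Sca-1+ MSCs (FDR 0.0971) were lost in 15 and 14 of the 21 alternatives. Bmp2 in Itga8+ against CD51+CD140a+ MSCs (log2 -0.97, FDR 0.126) and in Sca-1+ against CD51+CD140a+ MSCs (log2 0.22, FDR 0.841) did not pass.

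Bmp1 (ENSMUSG00000022098, chr14:70474558-70520234, minus strand), the procollagen C-proteinase, showed 489, 791 and 597 CPM in Itga8- BLCs and 355, 387 and 264 CPM in Sca-1+ MSCs. CD51+CD140a+ MSCs held 184, 161 and 238 CPM, and Itga8+ MSCs 153, 35.6 and 203 CPM. These last 2 populations overlapped, and the other neighbours in the order did not. Bmp1 was 4.79-fold lower in Itga8+ MSCs than in Itga8- BLCs (log2 -2.26, SE 0.504, FDR 0.0360), and 3.22-fold higher in Itga8- BLCs than in CD51+CD140a+ MSCs (log2 1.69, SE 0.494, FDR 0.0229). The first call was lost without Itga8- BLC replicate 2 and in a fit of those 6 libraries alone. A 2.56-fold lower level in Itga8+ than in Sca-1+ MSCs (FDR 0.0806) was lost in 10 of the 21 alternatives, and without Itga8+ replicate 2 its log2 value was -0.93. Itga8- BLCs against Sca-1+ MSCs (log2 0.90, FDR 0.207), Sca-1+ against CD51+CD140a+ MSCs (log2 0.79, FDR 0.336) and Itga8+ against CD51+CD140a+ MSCs (log2 -0.57, FDR 0.383) did not pass.

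The summed osteoblast markers were also highest in the population where these 3 genes were highest. All 8 were detected in each population, with summed levels of 36767 to 115070 CPM in Itga8- BLCs, 674 to 7956 in Itga8+ MSCs, 15631 to 19487 in Sca-1+ MSCs, while CD51+CD140a+ MSCs held 8175 to 17409. Col1a1 made up most of the Itga8- BLC sum on average (66586 CPM), and 7 of the 8 markers had their highest mean there. Ibsp was the exception, at 3462 CPM (2628 to 4681) in Itga8- BLCs and 10118 CPM (6819 to 16048) in CD51+CD140a+ MSCs. Among the Itga8- BLCs, replicate 2 was the highest in the osteoblast marker sum and in Bmp3, Bmp2 and Bmp1, while replicate 3 had the lowest marker sum and replicate 1 the lowest level of these 3 genes. Their part in the differences was not tested.

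**Figure D3:**
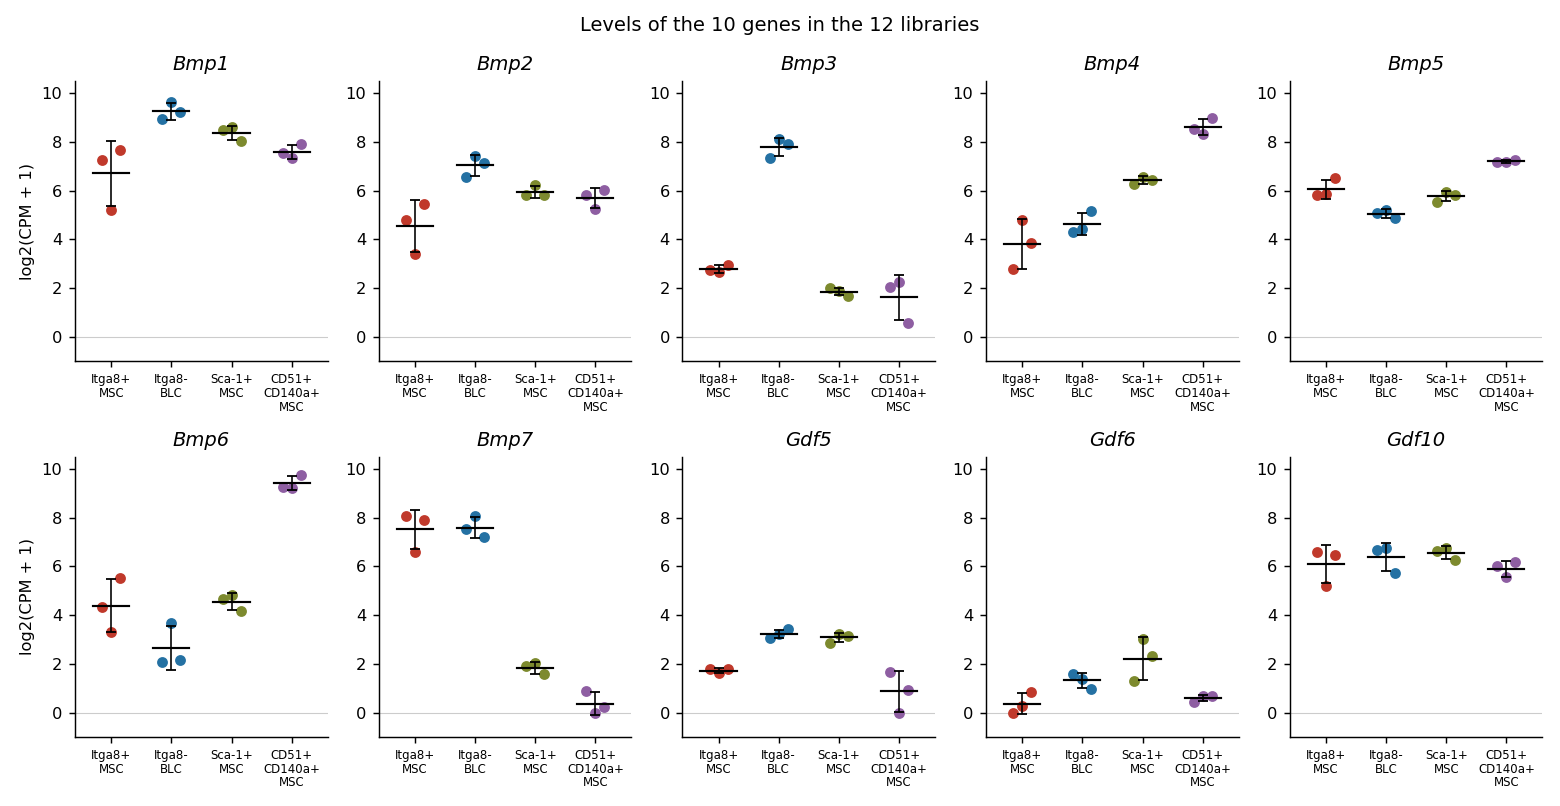
Level of each gene as log2(CPM + 1) (y axis) in the 12 libraries, grouped by population on the x axis, with a horizontal line at the mean and bars of 1 SD (n = 3). Bmp7 is high in both Alcam+ populations, Bmp3 in Itga8- BLCs, and Bmp4, Bmp5 and Bmp6 in CD51+CD140a+ MSCs, while Gdf10 overlaps across nearly all groups.

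Bmp4, Bmp6 and Bmp5 were highest in CD51+CD140a+ MSCs. Bmp4 (ENSMUSG00000021835, chr14:46383520-46390669, minus strand), a ligand of mesoderm and limb patterning close in sequence to Bmp2, reached 374, 318 and 508 CPM there. Sca-1+ MSCs held 75.5, 94.9 and 85.4 CPM, Itga8- BLCs 18.7, 20.8 and 34.6 CPM, and Itga8+ MSCs 5.89, 27.1 and 13.3 CPM. The upper 2 populations were separated from each other and from the rest, while the 2 Alcam+ populations overlapped. All 5 comparisons across those separations were called and stayed called in the 21 alternatives. Bmp4 was 25.9-fold lower in Itga8+ than in CD51+CD140a+ MSCs (log2 -4.70, SE 0.530, FDR 6.02e-05) and 5.52-fold lower than in Sca-1+ MSCs (log2 -2.47, SE 0.480, FDR 0.00538). Itga8- BLCs were 16.2-fold (FDR 0.000141) and 3.45-fold (FDR 0.0188) below the same populations. Sca-1+ MSCs were 4.69-fold below CD51+CD140a+ MSCs (FDR 0.00578). The pair of Alcam+ populations gave a log2 fold change of -0.68 with an FDR of 0.658 (-1.34 without Itga8+ replicate 2). Unlike most of the other genes, Bmp4 was highest in replicate 2 among the Itga8+ MSCs, and without that library the log2 values against Sca-1+ and CD51+CD140a+ MSCs were -3.17 and -5.36.

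Bmp6 (ENSMUSG00000039004, chr13:38345107-38500302, plus strand) encodes a ligand of cartilage and bone that also drives hepcidin expression in the liver in response to iron. It gave 614, 600.2 and 869.9 CPM in CD51+CD140a+ MSCs, 24.5, 27.3 and 16.8 CPM in Sca-1+ MSCs, 19.4, 9.04 and 44.5 CPM in Itga8+ MSCs and 3.24, 11.9 and 3.48 CPM in Itga8- BLCs. The CD51+CD140a+ libraries lay above the other 9 without overlap. Among the endosteal populations, Itga8+ MSCs overlapped both others, and Itga8- BLCs lay below Sca-1+ MSCs. The CD51+CD140a+ level exceeded that of Itga8+ MSCs 28.6-fold (log2 of Itga8+ against CD51+CD140a+ MSCs -4.84, SE 0.673, FDR 0.000264), of Itga8- BLCs 112-fold (FDR 4.44e-05) and of Sca-1+ MSCs 30.4-fold (FDR 0.000275). The log2 value of Itga8+ against CD51+CD140a+ MSCs was -5.60 without Itga8+ replicate 3, and that of Itga8- BLCs, -6.81, was -7.70 without Itga8- replicate 2. Itga8- BLCs were 3.68-fold below Sca-1+ MSCs (FDR 0.0434), a call lost without Itga8- replicate 1, Itga8- replicate 3 or Sca-1+ replicate 2, and the log2 value of -1.88 was -2.81 without Itga8- replicate 2. The 3.91-fold difference between Itga8+ MSCs and Itga8- BLCs missed the threshold (log2 1.97, SE 0.600, FDR 0.137). It passed in 5 of the 21 alternatives, among them those without Itga8+ replicate 2 or Itga8- replicate 2. With a library left out, its log2 value ranged from 1.205, without Itga8+ replicate 3, to 2.87. The log2 fold change between Itga8+ and Sca-1+ MSCs was 0.09 (FDR 0.938).

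Bmp5 (ENSMUSG00000032179, chr9:75775364-75900310, plus strand), the gene mutated in the short ear mouse, spanned the smallest range among the 9 genes with a called difference. CD51+CD140a+ MSCs held 144, 142 and 154 CPM, Itga8+ MSCs 55.1, 56.6 and 90.6 CPM, Sca-1+ MSCs 45.3, 60.0 and 56.3 CPM, and Itga8- BLCs 33.1, 36.1 and 28.2 CPM. Itga8+ and Sca-1+ MSCs overlapped, and the other neighbours were separated. CD51+CD140a+ MSCs exceeded Itga8- BLCs 4.52-fold (FDR 0.000131), Sca-1+ MSCs 2.72-fold (FDR 0.00242) and Itga8+ MSCs 2.18-fold (FDR 0.00839). The last of these fell just below the 2-fold threshold without Itga8+ replicate 1 or replicate 2, at a smallest log2 value of -0.99. Bmp5 was the 1 gene called higher in Itga8+ MSCs than in Itga8- BLCs (2.08-fold, log2 1.05, SE 0.267, FDR 0.0645), and 13 of the 21 alternatives lost that call. In Itga8- BLCs against Sca-1+ MSCs the FDR was 0.0695 but the fold, 1.66, was under 2, and Itga8+ against Sca-1+ MSCs gave a log2 value of 0.32 (FDR 0.409).

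The 7 markers of LepR+ stromal cells (Lepr, Cxcl12, Kitl, Adipoq, Foxc1, Ebf3 and Hp) summed to 51033 to 66956 CPM in CD51+CD140a+ MSCs and to 508 to 796 CPM in the other 9 libraries. They moved with Bmp4, Bmp5 and Bmp6, and their part was not tested. Some exon bases of these genes are also covered by a gene on the opposite strand, and whether the counting used strand was not given in the sources used here. The overlap was 46.7% of Bmp5 exon bases (with Gm26903), 5.74% of Bmp6 (with Txndc5) and 3.96% of Bmp4 (with Gm15217). Gm26903 averaged 14.998 CPM in Itga8+ MSCs, 7.84 in Itga8- BLCs, 15.8 in Sca-1+ MSCs and, in the marrow population, 50.6 CPM, the same top and bottom as Bmp5. Reads on the bases shared by Bmp5 and Gm26903 cannot be told apart if the counting did not use strand. Txndc5 was lowest in CD51+CD140a+ MSCs (410 CPM against 655 to 839), and Gm15217 stayed at or under 0.159 CPM on average.

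The 250 bases upstream of the transcription start are shown for Bmp4 and Bmp5, which share a maximum in CD51+CD140a+ MSCs, and for Gdf10, which had no detected difference between populations. RefSeq (GRCm38.p6) promoter sequences were at hand for 4 of the 10 genes. That of Bmp6 lies within the gene itself in GENCODE M21 and is not printed. Sequences are given 5′ to 3′ on the gene's own strand, in lower case with motif matches in capitals. Positions are chr14:46390670-46390919 (minus strand) for Bmp4, chr9:75775115-75775364 (plus strand) for Bmp5 and chr14:33923337-33923586 (plus strand) for Gdf10.
Bmp4: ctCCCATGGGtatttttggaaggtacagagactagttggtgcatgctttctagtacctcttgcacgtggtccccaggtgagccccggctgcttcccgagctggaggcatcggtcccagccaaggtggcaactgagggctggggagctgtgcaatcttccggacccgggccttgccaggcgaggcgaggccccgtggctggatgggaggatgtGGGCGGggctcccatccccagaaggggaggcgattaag
Bmp5: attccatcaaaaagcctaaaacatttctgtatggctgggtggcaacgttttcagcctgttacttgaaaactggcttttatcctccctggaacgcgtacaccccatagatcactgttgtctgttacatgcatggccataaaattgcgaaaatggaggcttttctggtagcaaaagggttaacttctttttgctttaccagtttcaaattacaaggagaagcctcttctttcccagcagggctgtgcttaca
Gdf10: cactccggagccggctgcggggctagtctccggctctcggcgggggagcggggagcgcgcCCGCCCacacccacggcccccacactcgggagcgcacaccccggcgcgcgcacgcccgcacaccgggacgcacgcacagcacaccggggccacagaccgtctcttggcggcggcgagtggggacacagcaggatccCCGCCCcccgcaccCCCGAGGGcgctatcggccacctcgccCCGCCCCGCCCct
The 6 motifs searched on both strands were the GC box GGGCGG (in 32.7% of 32851 promoter windows of the same length), the TATA box TATAAA (12.4%), the CCAAT box CCAAT (33.8%), the RUNX motif TGTGGT (14.0%), the EBF motif CCCNNGGG (11.8%) and the BMP-responsive SMAD motif GGCGCC (9.59%). The Bmp4 window held 1 GC box starting 38 bases upstream and 1 EBF match starting 248 bases upstream. Gdf10 held 4 GC boxes, starting 190, 54, 13 and 8 bases upstream, the last 2 sharing a base, and 1 EBF match starting 40 bases upstream. The Bmp5 window held none of the 6, and the Bmp6 window held 1 GC box. GC content was 63.2% for Bmp4, 42.8% for Bmp5 and 78.8% for Gdf10, with 11, 4 and 35 CpG dinucleotides, beside medians of 52.4% and 6 over all windows. These matches describe letters, not binding.

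The GDF genes were either low or even. Gdf5 (ENSMUSG00000038259, chr2:155941023-155945367, minus strand), a ligand of joint and digit formation, stood at 7.47, 8.25 and 9.71 CPM in Itga8- BLCs and 6.25, 8.44 and 7.97 CPM in Sca-1+ MSCs. Itga8+ MSCs held 2.42, 2.08 and 2.43 CPM, and CD51+CD140a+ MSCs 2.21, 0 and 0.902 CPM. The first pair of populations overlapped each other and lay above the second pair, which also overlapped. Gdf5 was called 8.11-fold higher in Itga8- BLCs than in CD51+CD140a+ MSCs (log2 3.02, SE 0.921, FDR 0.0276) and 7.23-fold higher in Sca-1+ than in CD51+CD140a+ MSCs (FDR 0.0518). Without CD51+CD140a+ replicate 1 the log2 values were 4.23 and 4.07. This difference between Sca-1+ and CD51+CD140a+ MSCs lost its call in 4 of the 21 alternatives, among them those without Sca-1+ replicate 2, Sca-1+ replicate 3 or CD51+CD140a+ replicate 3. Itga8+ MSCs were below Itga8- BLCs (log2 -1.87, SE 0.884, FDR 0.435) and Sca-1+ MSCs (log2 -1.71, FDR 0.200) without passing. Without CD51+CD140a+ replicate 2, the library with 0 counts, both passed at the same log2 values (FDR 0.0326 and 0.0153). Gdf5 in Itga8+ against CD51+CD140a+ MSCs (log2 1.15, FDR 0.338) and in Itga8- BLCs against Sca-1+ MSCs (log2 0.17, FDR 0.913) did not pass. The first of these had a log2 value of 2.36 without CD51+CD140a+ replicate 1, and passed with limma-trend (log2 1.84, FDR 0.0918). Of the Gdf5 exon bases, 40.3% are shared with Gm15557 on the opposite strand. Gm15557 averaged 1.47 CPM in Itga8+ MSCs, 5.66 in Itga8- BLCs, 5.33 in Sca-1+ MSCs and, in the marrow population, 0.736 CPM, the order of Gdf5. Reads on the shared bases cannot be told apart if the counting did not use strand.

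Gdf6 (ENSMUSG00000051279, chr4:9844372-9862345, plus strand), which acts in joint and skull development, was low in every population. It gave 1.44, 7.12 and 4.08 CPM in Sca-1+ MSCs, 2.04, 1.62 and 0.959 CPM in Itga8- BLCs, 0.355, 0.602 and 0.612 CPM in CD51+CD140a+ MSCs and 0, 0.208 and 0.809 CPM in Itga8+ MSCs. Neighbours in this order overlapped except Itga8- BLCs and CD51+CD140a+ MSCs, and the counts behind them were 0 to 140 per library. Gdf6 was called 12.5-fold lower in Itga8+ than in Sca-1+ MSCs (log2 -3.64, SE 0.988, FDR 0.0281) and 8.00-fold higher in Sca-1+ than in CD51+CD140a+ MSCs (log2 3.00, SE 0.931, FDR 0.0449). Both calls were lost without Sca-1+ replicate 2, the highest library, at log2 values of -3.03 and 2.39. The first was -5.34 without Itga8+ replicate 3, which held 14 counts, and -3.05 without Itga8+ replicate 1, which held 0. The second was also lost without any 1 of the 3 CD51+CD140a+ libraries. The other comparisons of Gdf6 did not pass, with log2 values of -2.20 in Itga8+ MSCs against Itga8- BLCs (FDR 0.373), -0.64 against CD51+CD140a+ MSCs (FDR 0.625), and for Itga8- BLCs -1.45 against Sca-1+ MSCs (FDR 0.262) and 1.55 against CD51+CD140a+ MSCs (FDR 0.210). Without Itga8+ replicate 3 the first pair of values became -3.86 and -2.31, and without Itga8+ replicate 1 they became -1.60 and -0.049. The value of -1.45 became -0.84 without Sca-1+ replicate 2.

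Gdf10 (ENSMUSG00000021943, chr14:33923587-33937983, plus strand), also called Bmp3b and the closest relative of Bmp3, was expressed at a similar level in each population. Its values were 95.8, 36.0 and 88.1 CPM in Itga8+ MSCs, 102, 108 and 51.4 CPM in Itga8- BLCs, 99.4, 108 and 76.7 CPM in Sca-1+ MSCs and 63.2, 45.9 and 71.6 CPM in CD51+CD140a+ MSCs. The Sca-1+ libraries lay just above the CD51+CD140a+ libraries, and every other pair of populations overlapped. The largest log2 fold change of the 6 comparisons, 0.65 with an SE of 0.396, was for Sca-1+ against CD51+CD140a+ MSCs (FDR 0.327). The other 5 log2 values lay between -0.37 and 0.53, with FDRs of 0.326 to 0.908. None of the 6 was called in any of the 21 alternatives. The relatives Bmp3 and Gdf10 thus had unlike profiles, one concentrated in Itga8- BLCs and the other not detectably different.

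Between 4 and 7 of the 10 tested receptor genes, of 11 type I and type II receptors and co-receptors in the list, were called lower in an Alcam+ population than in each of the others. Itga8+ MSCs had 6 lower than Sca-1+ MSCs, where 8.89% of all genes were lower, and none higher. Itga8- BLCs had 7 lower than Sca-1+ MSCs (11.9% of all genes), and none higher. Against CD51+CD140a+ MSCs, 4 were lower in Itga8+ MSCs (14.3% of all genes) and 5 in Itga8- BLCs (14.9%), while Bmpr1b was higher in both (21.2% and 20.4% of all genes). Acvr1, a type I receptor, was called in no comparison. The median log2 fold changes in these 4 comparisons were -1.60, -1.70, -1.25 and -1.22. Acvrl1 (ALK1, a type I receptor) averaged 2.98 ± 0.952 CPM in Itga8+ MSCs and 3.71 ± 1.46 in Itga8- BLCs, but 33.7 ± 3.97 in Sca-1+ MSCs, while CD51+CD140a+ MSCs held 39.9 ± 5.33 (log2 of Itga8+ against Sca-1+ MSCs -3.50, FDR 0.000169). The type II receptor Acvr2a rose from 10.3 ± 8.53 and 10.9 ± 4.06 CPM in the Alcam+ populations to 38.6 ± 4.87 in Sca-1+ and 175 ± 33.5 in CD51+CD140a+ MSCs (log2 of Itga8+ against CD51+CD140a+ MSCs -4.08, FDR 0.000790).

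Bmpr1b, the type I receptor preferred by Gdf5, reached 26.9 ± 8.52 CPM in Sca-1+ MSCs, its highest level. It averaged 2.92 ± 3.16 CPM in Itga8+ MSCs and 1.99 ± 1.35 CPM in Itga8- BLCs, and had 0 counts in all 3 CD51+CD140a+ libraries. It was at least 305-fold higher in Sca-1+ than in CD51+CD140a+ MSCs, taking 3 counts per library as the floor (FDR 0.000446). Acvr2b was the 1 receptor of the 10 called between the Alcam+ populations, lower in Itga8+ MSCs, as were 2.16% of all genes. It averaged 0.143 CPM in Itga8+ MSCs and 1.77 CPM in Itga8- BLCs (FDR 0.00533), and 6.42 CPM in CD51+CD140a+ MSCs. No Itga8+ library held more than 3 counts of Acvr2b, so its level there was at least 11.1-fold below Itga8- BLCs at that floor. Itga8+ against Itga8- cells gave no other receptor call, at a list median of -0.03.

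Calls among the genes that carry or damp the signal inside the cell fell mainly on Smad9, Bambi, Smad6 and Smurf1. Of the 4 SMAD genes, Smad9 was called in 3 comparisons and Smad1, Smad5 and Smad4 in none. Smad9 was called lower in Itga8+ MSCs than in Itga8- BLCs (2.16% of all genes) and in CD51+CD140a+ MSCs (14.3%), and higher in Itga8- BLCs than in Sca-1+ MSCs (14.5%). Smad9 averaged 0.0693 CPM in Itga8+ MSCs, 2.65 in Itga8- BLCs, 0.366 in Sca-1+ MSCs, while CD51+CD140a+ MSCs held 1.35. No Itga8+ library held more than 4 Smad9 counts. Of the 8 inhibitors, 2 were lower in Itga8+ MSCs than in Itga8- BLCs (2.16% of all genes). Bambi, a decoy receptor without a kinase domain, averaged 530 ± 258 CPM in Itga8- BLCs against 102 ± 44.9 in Itga8+ MSCs (log2 -2.38, SE 0.388, FDR 0.00589). It was 2.89 and 2.97 log2 units higher in Itga8- BLCs than in Sca-1+ and CD51+CD140a+ MSCs. Smad6, an inhibitory SMAD, was lowest in Itga8+ MSCs at 6.30 ± 4.04 CPM and highest in CD51+CD140a+ MSCs at 62.6 ± 14.1 CPM (log2 -3.31, FDR 0.000434). Smurf1, a ubiquitin ligase that marks SMADs for degradation, averaged 22.9 CPM in Itga8+ MSCs, 18.1 in Itga8- BLCs, 95.2 in Sca-1+ MSCs and, in the marrow population, 67.7, and both Alcam+ populations were called below both others, at log2 values of -1.57 to -2.39 and FDRs of 0.0303 to 0.0997. Of the 8, Itga8+ MSCs had 2 lower than Sca-1+ MSCs (8.89% of all genes), and 1 higher and 2 lower than CD51+CD140a+ MSCs (21.2% and 14.3%). Itga8- BLCs had 1 higher and 2 lower than Sca-1+ MSCs (14.5% and 11.9%), and 1 higher and 3 lower than CD51+CD140a+ MSCs (20.4% and 14.9%). Sca-1+ MSCs had 1 lower than CD51+CD140a+ MSCs (9.3%). The counts of 1 higher did not exceed the share of all genes.

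Among the secreted antagonists, Chrdl1, Grem1 and Fst were highest in CD51+CD140a+ MSCs. Of 14 genes, 13 were tested. Against CD51+CD140a+ MSCs, Itga8+ MSCs had 5 higher and 5 lower (21.2% and 14.3% of all genes). Itga8- BLCs had 5 higher and 5 lower (20.4% and 14.9%), and Sca-1+ MSCs 5 higher and 3 lower (11.2% and 9.3%). Chrdl1, a chordin-like BMP binder, averaged 3497 ± 133 CPM in CD51+CD140a+ MSCs and 111 to 222 CPM in the other populations. Grem1 (gremlin) was at 119 ± 11.5 CPM there and at 1.24 to 2.13 CPM elsewhere (log2 of Itga8+ against CD51+CD140a+ MSCs -6.26, SE 0.844, FDR 0.000208). Fst (follistatin) was at 337 ± 46.1 CPM there, 43.8 ± 7.46 in Sca-1+ MSCs, 6.94 ± 3.20 in Itga8+ MSCs and 4.40 ± 0.910 in Itga8- BLCs. These 3 antagonists were highest where Bmp4 and Bmp6 were highest. Nbl1 (DAN) was instead lowest in that population, with 1401 ± 127 CPM in Sca-1+ MSCs, 263 ± 81.9 in Itga8- BLCs, 212 ± 52.5 in Itga8+ MSCs and, in the marrow population, 9.02 ± 0.595. Chrd (chordin), Fstl3 and Twsg1 also had their lowest means in CD51+CD140a+ MSCs. Chrd averaged 3.53 CPM there and 16.8 to 43.7 elsewhere, Fstl3 2.07 and 18.9 to 35.1, and Twsg1 162 and 206 to 694.

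Bmper, a chordin-like modulator, averaged 172 ± 10.4 CPM in CD51+CD140a+ and 87.3 ± 21.6 in Sca-1+ MSCs, against 9.93 ± 6.28 in Itga8+ MSCs and 6.13 ± 1.93 in Itga8- BLCs. Sostdc1 (ectodin) averaged 2.63 ± 2.21 CPM in Itga8+ MSCs and 5.20 ± 3.63 in Itga8- BLCs and had 0 counts in the other 6 libraries. Chrdl2 had 0 counts in the 3 CD51+CD140a+ libraries and averaged 2.11 to 3.46 CPM in the endosteal populations. Noggin averaged 1.26 to 3.59 CPM and was not called. Fstl1 was the 1 antagonist of the 13 called between the Alcam+ populations, 1.74 log2 units higher in Itga8+ MSCs (560 ± 267 against 167 ± 46.6 CPM, FDR 0.0171), where 1.66% of all genes were higher. Itga8+ MSCs had 1 antagonist higher and 5 lower than Sca-1+ MSCs (12.9% and 8.89% of all genes), and Itga8- BLCs 1 higher and 6 lower (14.5% and 11.9%).

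**Figure D4:**
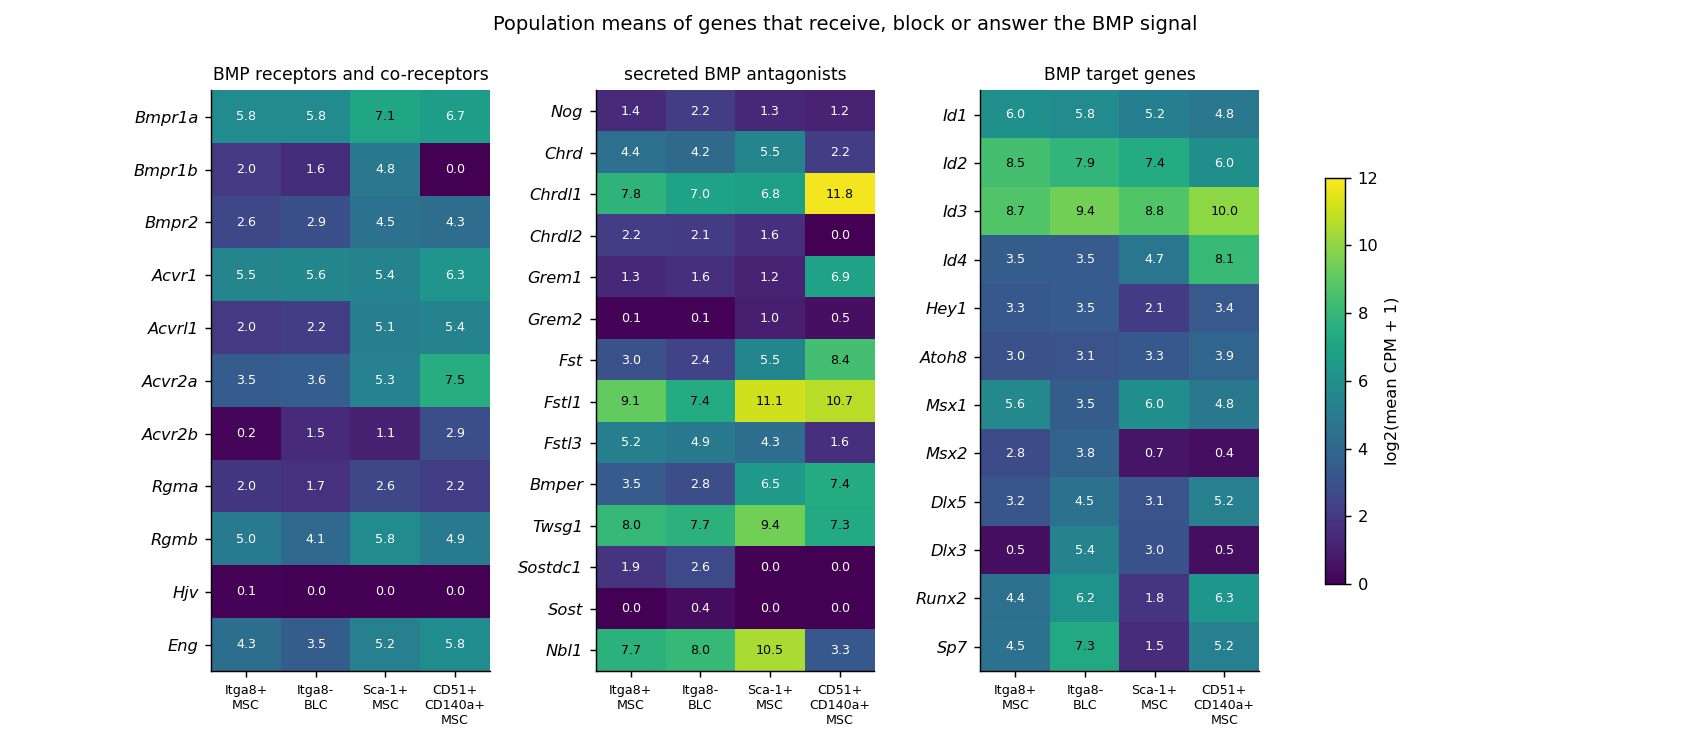
Population means as log2(mean CPM + 1) (colour and printed value, n = 3 libraries per column) of BMP receptors, secreted antagonists and target genes. Receptor values are lower in the first 2 columns for Acvrl1, Acvr2a and Bmpr2, and Chrdl1, Grem1, Fst and Id4 peak in the CD51+CD140a+ MSC column.

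Genes known to respond to BMP signals, 12 in all and all tested, did not move together. Between Itga8+ MSCs and Itga8- BLCs, 1 was higher and 3 lower (1.66% and 2.16% of all genes), with a median log2 value of -0.46. Dlx3, a homeobox gene of bone and tooth, averaged 0.414 ± 0.242 CPM in Itga8+ MSCs and 40.5 ± 16.0 in Itga8- BLCs (log2 -6.58, SE 0.615, FDR 0.000264). Sp7 (osterix) averaged 21.7 ± 11.4 and 153 ± 46.9 CPM (FDR 0.00382), and Msx1 went the other way, at 48.8 ± 9.26 and 10.6 ± 1.86 CPM (FDR 0.00149). Against CD51+CD140a+ MSCs, Itga8+ MSCs had 2 higher and 5 lower (21.2% and 14.3% of all genes) and Itga8- BLCs 4 higher and 2 lower (20.4% and 14.9%). The 2 higher in Itga8+ MSCs and the 2 lower in Itga8- BLCs were near the share of all genes. Against Sca-1+ MSCs, Itga8+ MSCs had 4 higher and 2 lower (12.9% and 8.89%), Itga8- BLCs 6 higher and 2 lower (14.5% and 11.9%), and CD51+CD140a+ MSCs 5 higher and 2 lower (9.3% and 11.2%). Within the Id family, Id4 was at 269 ± 28.7 CPM in CD51+CD140a+ MSCs and 10.0 to 25.6 CPM elsewhere, while Id2 had its lowest mean there, at 62.7 ± 4.24 CPM against 167 to 354 CPM. Id1 was called in no comparison. The list includes Runx2 and Sp7, which are also defining genes of osteoblasts.

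Among the enzymes that mature the ligands and the helpers of Bmp1, Pcolce2 and Pcsk6 were lower in CD51+CD140a+ MSCs than in each of the other populations. Pcolce2, an enhancer of procollagen C-proteinase, averaged 446 ± 151 CPM in Itga8+ MSCs, 410 ± 86.1 in Itga8- BLCs, 675 ± 7.20 in Sca-1+ MSCs, while CD51+CD140a+ MSCs held 6.58 ± 1.84 (log2 of Itga8+ against CD51+CD140a+ MSCs 6.08, SE 0.386, FDR 1.24e-06). Its relative Pcolce was called higher in Itga8- BLCs and Sca-1+ MSCs than in CD51+CD140a+ MSCs, at log2 values of 1.24 and 1.41. Tll2, a relative of Bmp1, went the other way, at 0.0830 CPM in Itga8- BLCs and 2.60 CPM in CD51+CD140a+ MSCs (log2 -4.85, SE 1.81, FDR 0.0617). Neither Pcolce nor Pcolce2 was called between endosteal populations, unlike Bmp1. Among the 4 proprotein convertases, Pcsk6 (PACE4) averaged 436 ± 347 CPM in Itga8- BLCs, 251 ± 45.8 in Sca-1+ MSCs, 95.4 ± 83.1 in Itga8+ MSCs and, in the marrow population, 11.2 ± 2.18, which was called lower than each of the others. The Itga8+ libraries (13.66 to 180 CPM) and the CD51+CD140a+ libraries (9.81 to 13.73 CPM) overlapped for Pcsk6. Pcsk5 was lowest in Sca-1+ MSCs at 47.1 ± 2.69 CPM and was called lower there than in the 3 others. Furin and Pcsk7 were called in no comparison.

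Other family ligands, of which 8 of 12 were tested, added Mstn and Bmp8a to the picture. Mstn (myostatin), which limits muscle growth, averaged 126 ± 59.6 CPM in Itga8+ MSCs, 4.11 ± 1.96 in Itga8- BLCs and 22.2 ± 11.97 in Sca-1+ MSCs, with 0 counts in the 3 CD51+CD140a+ libraries. Itga8+ MSCs held more of it than Itga8- BLCs (log2 4.94, SE 0.623, FDR 0.00237) and Sca-1+ MSCs (log2 2.51, FDR 0.0141), and exceeded the CD51+CD140a+ level at least 1432-fold at a floor of 3 counts per library. The 6 tendon markers had the order of Mstn, with sums of 12896 to 23551 CPM in Itga8+ MSCs, 6266 to 9352 in Sca-1+ MSCs, 3788 to 6396 in Itga8- BLCs and, in the marrow population, 83.4 to 113. The 6 skeletal muscle markers summed to 14.1 to 39.9 CPM in Itga8+ MSCs, 5.22 to 12.05 in Itga8- BLCs and 1.69 to 3.74 in the other 6 libraries. The part of both lists was not tested. Bmp8a averaged 52.2 ± 21.2 CPM in Itga8- BLCs and 2.61 ± 0.643 in Itga8+ MSCs (log2 -4.32, FDR 0.0244), with 0.520 CPM in Sca-1+ and 0.139 CPM in CD51+CD140a+ MSCs. Like Bmp3, it was highest in Itga8- BLCs. How the counting treated any reads shared with its relative Bmp8b was not given in the sources used here. Of the 8 tested, 2 were higher and 1 lower in Itga8+ MSCs than in Itga8- BLCs (1.66% and 2.16% of all genes), 3 higher and none lower than in Sca-1+ MSCs (12.9% and 8.89%), and 4 higher and 1 lower than in CD51+CD140a+ MSCs (21.2% and 14.3%). Itga8- BLCs had 2 higher and 2 lower than Sca-1+ MSCs (14.5% and 11.9%), and 4 higher and none lower than CD51+CD140a+ MSCs (20.4% and 14.9%). Sca-1+ MSCs had 2 higher and 1 lower than CD51+CD140a+ MSCs (11.2% and 9.3%). Bmp10 and Gdf1 had 0 counts in all 12 libraries.

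The profile of each member over the 12 libraries was compared with those of 10564 tested genes averaging at least 10 CPM in a population, by Pearson's r of log2(CPM + 1). These correlations are descriptions, since the 12 points fall into 4 populations that share their sorting. Bmp1 and Bmp2 were among each other's 3 most similar genes (r = 0.971), ahead of Fam214b and Aebp2 for Bmp1, and beside Plcd1 and Creb3l1 for Bmp2. Bmp3 was most like Ranbp3l (r = 0.985), Cpz and Rab27b. Bmp4 came closest to Rgs4 (r = 0.986), Ddx60 and Fgf7, and Bmp5 to Spry1 (r = 0.988), Eya1 and Tln2. The nearest genes of Bmp6 were Adgrf5 (r = 0.995), Ism1 and Itga1, and those of Bmp7 were Notumos (r = 0.990), Myadml2os and Tcfl5. Gdf5 was most like Ephx4 (r = 0.947), Raph1 and Cd44, Gdf6 like Plekha5 (r = 0.853) and Stra6, and Gdf10 like Ttc7b (r = 0.964), Ralgds and Rassf3. Among the members themselves, Bmp5 and Bmp6 had an r of 0.957, Bmp4 and Bmp6 0.795, and Bmp4 and Bmp7 -0.932.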

How the data were processed

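The authors deposited a table of raw read counts per Ensembl gene for each of the 12 libraries, and these deposited counts were used as they stand. RNA was extracted with NucleoSpin RNA Plus XS, amplified with SMART-Seq v4, prepared with Nextera XT and sequenced on an Illumina NextSeq. The submitters' processing notes list FastQC 0.11.7, Trimmomatic 0.38, HISAT2 2.1.0, SAMtools 1.9, featureCounts 1.6.3 and the mm10 build, whereas the study's methods name TopHat and Bowtie2 with mm10. Which aligner made the files was not settled. The annotation release and the use of strand were not given in the sources used here. SMART-Seq amplification carries no molecular identifiers, so counts are not independent molecules and the floor of 3 counts covers counting error only.

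Symbols, positions and exon-union lengths came from GENCODE M21 (GRCm38, the same assembly as mm10), which held 49326 of the 49585 gene IDs. Genes reaching 0.5 CPM in 1 library or more were kept. edgeR 4.0.16 fitted quasi-likelihood models to all 12 libraries with TMM factors, and each pair of populations was tested two-sided, with Benjamini-Hochberg FDR over 18648 genes. As in the study, a call needed more than a 2-fold difference and an FDR under 0.1. The fit was tested on simulated data. DESeq2 1.42.0, limma 3.58.1, other scalings, filters, sample choices and leaving out each library were the alternatives. TPM used exon-union lengths. From 8 lists of pathway genes, called genes without overlap between libraries, at most 3 per list and comparison by size of change, were eligible to be named, and the text gives some of these and a few other members chosen after their values were seen. For each member the 3 genes most correlated with it are named, apart from 1 gene that is not reported here. The members and lists were chosen with earlier results of these data known. Markers of 12 cell types or gates were summed, and the sums not given beside a result are in the closing section.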

Additional observations from a re-analysis of the deposited data

How the results depend on the processing

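Of the 60 member comparisons, 33 kept direction and call in all 21 alternatives, 14 lost a call at least once and 7 gained one. The calls that held throughout included Bmp3 in Itga8- BLCs against each other population, all 5 Bmp4 calls, Bmp6 against CD51+CD140a+ MSCs, and Bmp7 in both Alcam+ populations against Sca-1+ and CD51+CD140a+ MSCs. Members called in Itga8+ MSCs against Itga8- BLCs numbered 4, but 1 in a fit of only the populations compared, and 3 to 5 with a library left out. Against Sca-1+ MSCs they numbered 5, but 3 at FDR under 0.05, and 2 to 5 with a library left out. Leaving out a library gave 3 to 5 members for Itga8+ against CD51+CD140a+ MSCs and for Itga8- BLCs against Sca-1+ MSCs, 7 to 8 for Itga8- BLCs against CD51+CD140a+ MSCs, 3 to 6 for Sca-1+ against CD51+CD140a+ MSCs, and 8 to 9 for any difference. Counts fell by more than 1.5 times without Itga8+ replicate 1, Itga8+ replicate 2, any Sca-1+ library or CD51+CD140a+ replicate 1 (Itga8+ against Sca-1+ MSCs), without Itga8+ replicate 1 or 2 (Itga8+ against CD51+CD140a+ MSCs), without Itga8- replicate 1 or 3 or Sca-1+ replicate 2 (Itga8- BLCs against Sca-1+ MSCs), and without CD51+CD140a+ replicate 3 (Sca-1+ against CD51+CD140a+ MSCs). The pathway genes called ranged over 10 to 16, 17 to 32 and 28 to 39 for Itga8+ MSCs against the other 3 populations in the order used above, 23 to 34 and 30 to 37 for Itga8- BLCs against the last 2, and 25 to 30 for the remaining pair.

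Replicate numbers are shared between the groups, and the correlations of same-numbered deviations ran from -0.736 to 0.342. With 3 libraries for each population, these values cannot show whether the numbers pair the libraries. With the replicate block, the members called in Itga8+ against Sca-1+ MSCs numbered 3 in place of 5, and all genes called in Itga8+ MSCs against Itga8- BLCs 433 in place of 712. The latter count was 1203 with DESeq2, 276 with only the populations compared, 464 at FDR under 0.05 and 433 to 886 with a library left out, the lowest without Itga8- replicate 3. All genes called in Itga8+ against Sca-1+ MSCs numbered 4055, but 2642, 2386 and 2492 without Sca-1+ replicates 1, 2 and 3. The cause was not tested.

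Directions turned only in small differences that were not called. The log2 value of Bmp7 between the Alcam+ populations became -0.075 with limma-trend, -0.11 with the replicate block, and -0.24, -0.12, -0.02 and -0.15 without Itga8+ replicates 1 and 3 and Itga8- replicates 1 and 3, in a range of -0.24 to 0.37 with a library left out. Bmp6 in Itga8+ against Sca-1+ MSCs became -0.17 with limma-trend, -0.72 without Itga8+ replicate 3 and -0.09 without Sca-1+ replicate 3, in a range of -0.72 to 0.47. Bmp3 in Sca-1+ against CD51+CD140a+ MSCs became -0.078 with library totals alone, -0.00088 without Sca-1+ replicate 1 and -0.39 without CD51+CD140a+ replicate 3, in a range of -0.39 to 0.51. Gdf10 in Itga8+ MSCs against Itga8- BLCs became 0.015 with library totals alone and 0.10 without Itga8+ replicate 2, in a range of -0.50 to 0.10, and against Sca-1+ MSCs Itga8- BLCs gave 0.15 without Itga8- replicate 3, in a range of -0.34 to 0.15. Gdf5 in the latter comparison became -0.054 with library totals alone.

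Library totals alone in place of TMM moved the median of all genes by 0.26 (Itga8+ MSCs against Itga8- BLCs), -0.10 (Itga8+ against CD51+CD140a+ MSCs), -0.18 (Itga8- BLCs against Sca-1+ MSCs), -0.33 (Itga8- BLCs against CD51+CD140a+ MSCs) and -0.14 (Sca-1+ against CD51+CD140a+ MSCs). The share of calls that were higher went from 43.5% to 61.3% in Itga8+ MSCs against Itga8- BLCs, and in Itga8- BLCs from 54.9% to 42.6% against Sca-1+ MSCs and from 57.9% to 41.8% against CD51+CD140a+ MSCs. Limits of depth apply to Gdf5, Gdf6 and Bmp7 in CD51+CD140a+ MSCs, where single libraries held 0 to 81 counts, and to Gdf6 in Itga8+ MSCs, with 0 to 14 counts.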

Other observations

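The remaining marker lists had these summed levels. Markers of Sca-1+ fibroblasts (7 genes) summed to 32892 to 47552 CPM in Sca-1+ MSCs and to at most 3594 CPM in the other 9 libraries. The sorting markers (5 genes) summed to 86.3 to 355 CPM in the 2 Alcam+ populations and 934 to 1807 CPM in the others. Alcam mRNA, the gate of the first 2 populations, averaged 3.01 ± 1.89 CPM in Itga8+ MSCs and 4.92 ± 1.00 in Itga8- BLCs, and at most 0.139 CPM in the others. Endothelial markers (7 genes) summed to 78.7 to 113 CPM in Sca-1+ MSCs and 11.4 to 40.2 CPM in the others. Tek made up most of the Sca-1+ sum, at 69.9 CPM on average against 1.36 to 3.07 CPM elsewhere. Each other endothelial marker averaged at most 5.83 CPM in Sca-1+ MSCs. Pericyte and smooth muscle markers (6 genes) summed to 135 to 646 CPM over the 12 libraries.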
